A study of Homo sapiens with 12 samples.

Results

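Long noncoding and antisense RNA genes were taken by their symbols from 2 of the authors' tables, the table of polyadenylation changes and the table of cryptic polyadenylation sites, both from 3' end-seq. A gene was included if its symbol started with LINC (long intergenic noncoding RNA), held -AS and a digit (antisense RNA of the gene named before it), or ended in -DT (divergent transcript of that gene). The rule found 145 of the 2292 named genes of both tables: 34 LINC genes, 72 antisense genes and 39 divergent genes. Of these, 137 were in the change table, 23 had a cryptic site, and 15 were in both. RefSeq (GRCh38.p14) held 142 of the 145, 2 of them under a newer symbol, and gave all 142 the biotype of long noncoding RNA. GOLPH3-DT, PRKACB-DT and ZMPSTE24-DT were not matched.

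The cells were cortical neurons obtained by overexpressing the neurogenic transcription factor NGN2 in WA01, a human embryonic stem cell line that is well established and labelled as wild type. One arm received a scrambled short hairpin RNA (shRNA) and the other an shRNA against TDP-43, a nuclear protein that binds RNA and leaves the nucleus in amyotrophic lateral sclerosis and frontotemporal dementia, for 7 days. Both arms therefore carried NGN2 and a hairpin, and the control was the scrambled one. Each arm gave 3 libraries of 3' end-seq, which reads the polyadenylated ends of transcripts, and 3 libraries of stranded total RNA-seq, 12 in all. The labels do not say that replicates were separate cultures, and the spread behind the deposited p-values may therefore be technical. The sources give 1 cell line and no line of a second donor.

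A long noncoding RNA is transcribed by RNA polymerase II and is often capped, spliced and polyadenylated, but codes for no known protein. Antisense RNAs run against a neighbouring or overlapping gene, and divergent transcripts leave a shared promoter region in the direction opposite to the coding gene. Where such a transcript ends is set by cleavage and polyadenylation, and an early poly(A) site or the Integrator complex can stop it soon after its start, with the nuclear exosome removing many short products. TDP-43 binds UG-rich RNA, and its binding near poly(A) sites and splice sites is known to alter their use.

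The divergent genes leave the same stretch of DNA as their coding partner. Of 29 divergent genes with a RefSeq start for both, all 29 lay on the opposite strand, 26 started within 1000 nt of the partner, and the median gap between the starts was 192 nt. Of 53 antisense genes, 18 started within 1000 nt, with a median gap of 7625 nt. The sequences below show 5 such shared starts, chosen because these divergent genes had large changes or a cryptic site. Each is 5′ to 3′ on the strand of the divergent gene, from 250 bases before its start to 50 after it, from RefSeq with the coordinates of GRCh38.p14. The windows are ISL1-DT, chr5:51383283-51383582, minus strand, TMCC1-DT, chr3:129893621-129893920, plus strand, ZNF496-DT, chr1:247331804-247332103, plus strand, WASL-DT, chr7:123748945-123749244, plus strand, and IRX2-DT, chr5:2751643-2751942, plus strand. Capitals mark the stretch from the start of the coding partner, which runs to the left, to the start of the divergent gene, which runs to the right.
ISL1-DT: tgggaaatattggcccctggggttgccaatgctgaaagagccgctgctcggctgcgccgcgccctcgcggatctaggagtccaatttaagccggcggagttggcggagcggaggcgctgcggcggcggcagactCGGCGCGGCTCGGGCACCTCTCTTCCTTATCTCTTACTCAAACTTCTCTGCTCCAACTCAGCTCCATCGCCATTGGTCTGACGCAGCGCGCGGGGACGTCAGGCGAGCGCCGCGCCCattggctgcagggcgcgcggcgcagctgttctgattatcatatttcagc
TMCC1-DT: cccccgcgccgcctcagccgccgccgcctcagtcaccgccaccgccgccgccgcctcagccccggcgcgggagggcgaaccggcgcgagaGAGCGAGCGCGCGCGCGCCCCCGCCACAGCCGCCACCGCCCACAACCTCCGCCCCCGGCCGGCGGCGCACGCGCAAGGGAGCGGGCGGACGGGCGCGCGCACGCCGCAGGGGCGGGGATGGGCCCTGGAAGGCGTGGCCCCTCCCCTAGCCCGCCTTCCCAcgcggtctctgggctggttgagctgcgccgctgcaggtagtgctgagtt
ZNF496-DT: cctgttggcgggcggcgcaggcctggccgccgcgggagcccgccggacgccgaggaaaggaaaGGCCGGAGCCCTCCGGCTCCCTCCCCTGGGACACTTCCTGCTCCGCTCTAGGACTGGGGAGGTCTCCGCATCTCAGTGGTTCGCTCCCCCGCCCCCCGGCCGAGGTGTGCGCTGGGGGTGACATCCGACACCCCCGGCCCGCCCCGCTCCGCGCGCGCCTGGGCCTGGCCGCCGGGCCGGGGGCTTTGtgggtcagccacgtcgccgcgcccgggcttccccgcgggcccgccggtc
WASL-DT: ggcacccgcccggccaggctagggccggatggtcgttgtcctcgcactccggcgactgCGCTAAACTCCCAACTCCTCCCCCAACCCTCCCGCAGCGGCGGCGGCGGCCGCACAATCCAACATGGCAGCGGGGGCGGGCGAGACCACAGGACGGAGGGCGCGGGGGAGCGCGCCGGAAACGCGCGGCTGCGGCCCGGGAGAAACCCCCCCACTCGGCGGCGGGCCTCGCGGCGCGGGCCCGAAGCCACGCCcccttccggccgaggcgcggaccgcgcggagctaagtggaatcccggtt
IRX2-DT: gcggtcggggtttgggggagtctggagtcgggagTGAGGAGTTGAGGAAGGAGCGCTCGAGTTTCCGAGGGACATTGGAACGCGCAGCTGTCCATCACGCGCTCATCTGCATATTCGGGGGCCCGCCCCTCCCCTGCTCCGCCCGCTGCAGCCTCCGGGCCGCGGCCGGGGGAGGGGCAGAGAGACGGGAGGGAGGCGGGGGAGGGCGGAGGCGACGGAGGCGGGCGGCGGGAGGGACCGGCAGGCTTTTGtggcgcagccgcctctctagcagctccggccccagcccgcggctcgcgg

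The gap between the starts in these windows was 116 nt for ISL1-DT, 160 nt for TMCC1-DT, 187 nt for ZNF496-DT, 192 nt for WASL-DT and 216 nt for IRX2-DT. ISL1 is a LIM homeobox transcription factor of motor neurons, TMCC1 a membrane protein of the endoplasmic reticulum, ZNF496 a zinc finger protein, WASL the actin regulator N-WASP, and IRX2 an Iroquois homeobox factor. GC content ran from 64% in the ISL1-DT window to 80.3% in the TMCC1-DT window, with 33 and 49 CG dinucleotides. None of the 5 holds AATAAA (the common poly(A) signal), TGTGTG (a UG repeat in RNA) or TATAAA on either strand. Over 117 of the 145 genes with such a window, median GC was 64%, against 58.3% over all 27305 RefSeq windows. The 30 divergent genes among them had a median of 67.7%. AATAAA on either strand was in 13.7% of the 117 windows and 17.8% of all windows, TGTGTG in 9.4% and 16.9%, and TATAAA in 6.84% and 12%. In the divergent windows the shares were 3.33% for AATAAA, 0% for TGTGTG and 3.33% for TATAAA.

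One falling polyadenylation site could be read in sequence, because it lies in the start window of another gene. The antisense gene CPB2-AS1 (chromosome 13, plus strand) had a site at 46052967 that fell in the knockdown, 119 nt after its RefSeq start. The sequence below, chr13:46052908-46052987 on the plus strand from RefSeq (GRCh38.p14), runs from 60 bases up to the site to 20 bases past it.
CPB2-AS1: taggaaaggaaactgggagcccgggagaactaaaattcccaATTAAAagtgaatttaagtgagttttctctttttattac

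Capitals mark ATTAAA, a known variant of the poly(A) signal, which starts 18 nt upstream of the site. The 20 bases after the site hold 12 T and 3 A, with a longest run of 1 A. The assay primes on poly(A), so A-rich DNA after a site would be a sign of priming inside the RNA. Sequence around the other sites was not analysed here.

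The values that follow are the authors' comparisons of both arms, which give 1 change and 1 adjusted p per gene and no value per library. They list changed items only, so the number of genes tested and the sequencing depth are unknown, and no level of a gene in a sample can be given. The change is that of a polyadenylation usage index whose scale is not stated. Longer means that use moved to the downstream of the 2 sites given for a gene, and shorter that it moved to the upstream site. The rising site is the site whose use went up in the knockdown and the falling site the one whose use went down. TARDBP expression and cell type markers could not be checked, since the deposited gene table was not used here.

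Among the 137 genes of the change table, 111 (81%) moved to the downstream site and 26 (19%) to the upstream site. Over all 2220 listed genes, 84.7% were called longer and 15.3% shorter, and these shares were not tested against each other. Where both sites lay inside the RefSeq gene, 57 of 74 noncoding genes (77%) and 86.6% of 1749 others were longer. In RNA from whole cultures, more cells with a shift and a larger shift per cell cannot be told apart. LINC genes were longer in 27 of 32 cases, antisense genes in 54 of 67 and divergent genes in 30 of 38. Of RefSeq protein-coding genes in the table, 1645 were longer and 268 shorter. The 25 other RefSeq long noncoding genes, which the symbol rule does not take, gave 20 longer and 5 shorter.

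**Figure D1:**
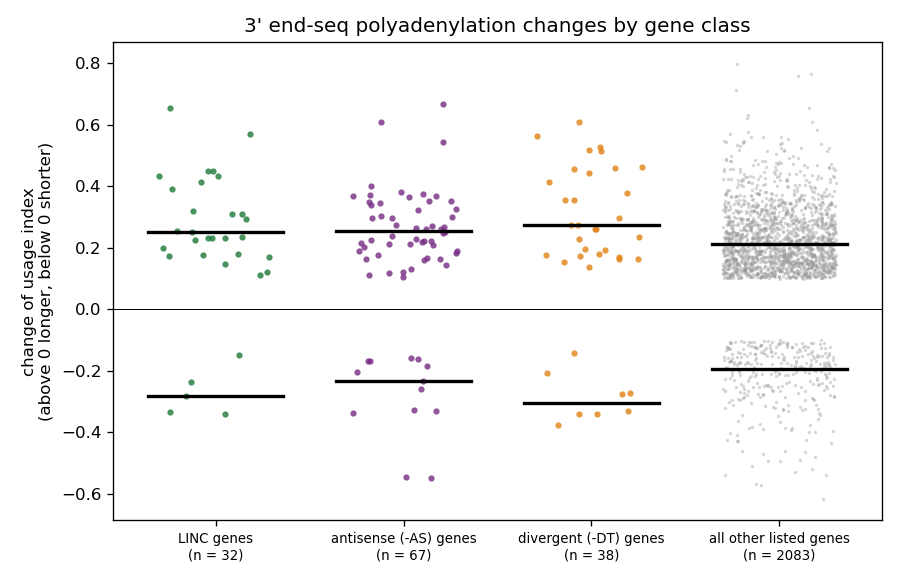
Change of the usage index (vertical axis, score of unstated scale) for each gene of the authors' deposited table of 3' end-seq, by class, with 1 point per gene and the median of each direction drawn as a bar. Points above 0 are longer and points below 0 shorter; 27, 54 and 30 of the LINC, antisense and divergent genes lie above 0.

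By size, and with no test over genes, the changes of the noncoding genes ran higher than those of the rest of the list. The median size was 0.262 in the 137 genes and 0.209 in the other listed genes, from the authors' deposited table. In the 25 RefSeq long noncoding genes outside the symbol rule it was 0.235, and 1 of them (4%) changed by at least 0.5. A change of at least 0.2 was listed for 98 of the 137 (71.5%), against 54.3% of all listed genes, and a change of at least 0.5 for 12 (8.76%), against 42 of the 2083 others (2.02%). The table gives no error on a change. Genes nearest to its lower end were RAB33B-AS1 at 0.106, OTUD6B-AS1 and LINC00662 at 0.110 and SMIM15-AS1 at 0.119. The adjusted p was given as exactly 0 for 2 genes, EPB41L4A-AS1 and ISL1-DT, and for 148 of the 2083 others. The highest among the 137 was 0.0271. Only changes that passed the limits of the list are seen, and how these limits bear on the sizes was not tested.

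The 10 genes with the largest move to the downstream site held 3 antisense, 2 LINC and 5 divergent genes. PRKCQ-AS1, antisense of the gene for protein kinase C theta, changed by 0.666 (adjusted p = 7.00e-41 in the authors' deposited table). Its falling site lay at chromosome 10:6584298 inside the RefSeq gene, and its rising site at 6590886, which is 5525 nt past the RefSeq end. LINC01023, a gene of 437 nt on chromosome 5, changed by 0.655 (adjusted p = 7.18e-15 in the authors' deposited table). Its falling site sat at the RefSeq end and its rising site 2121 nt past it. TCF12-DT, the divergent transcript of a helix-loop-helix transcription factor gene, changed by 0.609 between sites 57059 nt apart, per the authors' deposited table. FLRT2-AS1 (0.608) lies against the gene of a neuronal adhesion protein. LINC01285 had a change of 0.569. TMEM30A-DT (0.562) is the partner of a lipid flippase subunit gene. PTPRD-AS1 (0.543) is antisense to a receptor tyrosine phosphatase gene. TMCC1-DT (0.528), IRX2-DT (0.518) and WASL-DT (0.515), whose start windows are printed above, complete the 10, all in the authors' deposited table.

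The 10 largest moves to the upstream site were led by TMEM147-AS1 at -0.546 and POC1B-AS1 at -0.545 in the authors' deposited table, with adjusted p of 1.71e-43 and 4.38e-40. TMEM147 encodes a membrane protein of the endoplasmic reticulum, and POC1B a centriole protein. The sites of TMEM147-AS1 lay 857 nt apart, and the falling one was at the RefSeq end. Next came WDR11-DT at -0.376, LINC00649 at -0.341, SLC12A2-DT at -0.340 and RFX3-DT at -0.339. SLC12A2 is the sodium-potassium-chloride cotransporter gene, and RFX3 encodes a transcription factor of ciliated cells. PCGF3-AS1 (-0.336), LINC01588 (-0.334), TRIM52-AS1 (-0.331) and ISL1-DT (-0.331) followed in the authors' deposited table. LINC00649 had its sites only 92 nt apart.

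By median, and with no test, the sites of a pair were farther apart in the noncoding genes than in the rest of the list. The median distance on the genome was 6911 nt in the 137 genes and 2775 nt in the other listed genes. It was 3492 nt in LINC, 8271 nt in antisense and 9748 nt in divergent genes. The range ran from 55 nt in CSGALNACT2-DT to 252955 nt in COX10-DT. In 58 of the 137 genes (42.3%) the pair spanned over 10000 nt, against 24.7% of all listed genes. In the 25 RefSeq long noncoding genes outside the symbol rule the median was 7619 nt, with 12 (48%) over 10000 nt. The RefSeq spans of the members were the shorter ones, with a median of 28487 nt against 42835 nt in the others. Among pairs over 10000 nt apart, 46 of 58 noncoding genes (79.3%) were longer, and 68.4% of the others. Between 1000 and 10000 nt the shares were 80.4% and 90.8%, and up to 1000 nt 87% and 88.5%. These shares were not tested against each other, since genes are not replicates.

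**Figure D2:**
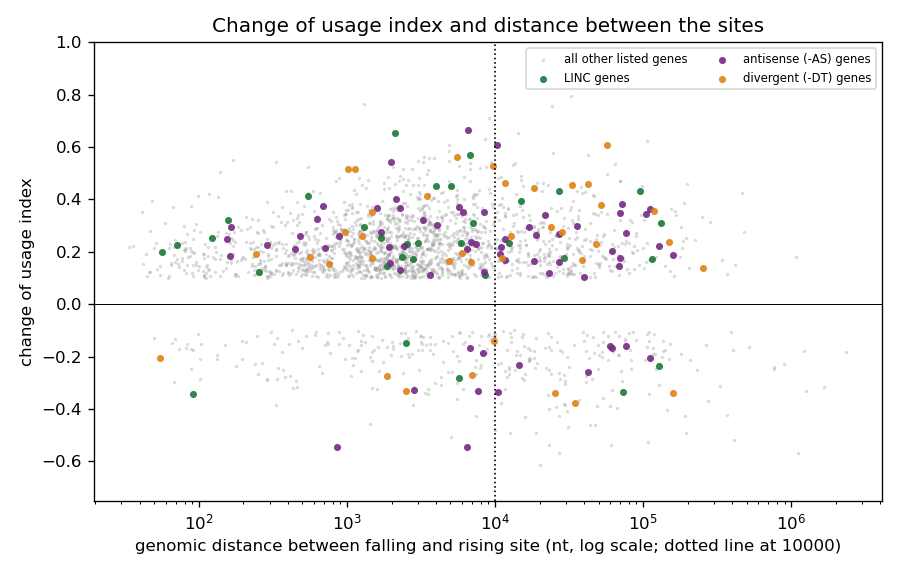
Change of the usage index (vertical axis) against the distance between falling and rising site in nt (horizontal, log scale), 1 point per gene of the authors' deposited table, with the noncoding classes in colour and the other listed genes in grey. The dotted line is at 10000 nt, beyond which 58 of the 137 noncoding genes lie.

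In a part of the longer genes the falling site was close to the start of the gene. RefSeq spans, which run from the first to the last base of any RefSeq transcript of the gene, gave the start and end. Of 102 longer noncoding genes with both sites downstream of the RefSeq start, 26 (25.5%) had the falling site within 2000 nt of that start. The same held for 5.95% of all 1765 such listed genes. Among divergent genes it was 11 of 26 (42.3%), with a median of 2501 nt from start to falling site and of 21010 nt from start to rising site. Antisense genes had it in 11 of 50 (22%) and LINC genes in 4 of 26 (15.4%). Other RefSeq long noncoding genes outside the symbol rule had it in 7 of 19 (36.8%) and protein-coding genes in 4.23%. The limit of 2000 nt was chosen with these positions known. A gene whose span is below 2000 nt passes it with any site inside, also one at its end. Counted with such short spans were LINC01023 (437 nt), COA6-AS1 (787 nt), LINC00526 (1306 nt), LINC01003 (1422 nt) and TOB1-AS1 (1693 nt). SCAMP1-AS1 (1778 nt) and EPB41L4A-AS1 (1976 nt) were others. In the order given, their falling sites were 1, 161, 51, 73, 66, 42 and 195 nt from the RefSeq end. ADGRB3-DT (1662 nt) and WASL-DT (1787 nt) were also counted, with falling sites 1336 nt and 1135 nt from it. How much of the difference in shares rests on short spans was not tested.

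Single genes show the span of these shifts, named here for their positions. In TMEM30A-DT the falling site was 288 nt and the rising site 5845 nt after the start. WASL-DT had them at 651 nt and 1782 nt, where its RefSeq span of 1787 nt ends. In ADGRB3-DT, next to an adhesion receptor gene, they were at 325 nt and 5236 nt. NEMP2-DT moved from 354 nt to 33265 nt, SEPTIN7-DT from 734 nt to 48767 nt, and TCF12-DT from 1773 nt to 58832 nt. In CPB2-AS1, whose early site is printed above, use moved from 119 nt to 69851 nt, with a change of 0.348 in the authors' deposited table. NIFK-AS1, antisense of a nucleolar protein gene, moved from 1881 nt to 78905 nt.

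Shorter genes moved the other way. In POC1B-AS1 the falling site was 7430 nt and the rising site 964 nt after the start. LINC00471 went from 5953 nt to 272 nt, YPEL3-DT from 7683 nt to 720 nt, and LINC02268 from 128672 nt to 1521 nt. In ISL1-DT the sites were 6263 nt and 3766 nt after the start. Over 23 shorter noncoding genes with both sites downstream of the RefSeq start, 5 (21.7%) had the rising site within 2000 nt of it, against 9.22% of all 282 such listed genes.

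The rising sites of longer genes were also placed against the annotated end, with no test between groups of genes. Within 10 nt of the RefSeq end were 26 of 102 noncoding genes (25.5%), against 64.2% of all 1765 listed genes. Past the RefSeq end lay 45 of 108 rising sites (41.7%), with a median of 3575 nt past it, against 10.9% of all longer genes. In 38 of them the falling site was inside the gene. Both sites were inside in 57 of the 108 (52.8%), and in 90.2% of the other longer genes. Of 19 RefSeq long noncoding genes outside the symbol rule, 42.1% had the rising site within 10 nt of the end, between the 25.5% and the 64.2%. Of 20 such genes, 8 (40%) had it past the end and 55% had both sites inside, which are shares like those of the 108. The falling site itself was within 10 nt of the RefSeq end in 14 of 102 (13.7%), and in 2.22% of the others. PTPRD-AS1 and LINC01278 are cases in which the RefSeq end was the falling site. In TMCC1-DT the falling site was 6 nt short of it and the rising site 9662 nt past it.

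**Figure D3:**
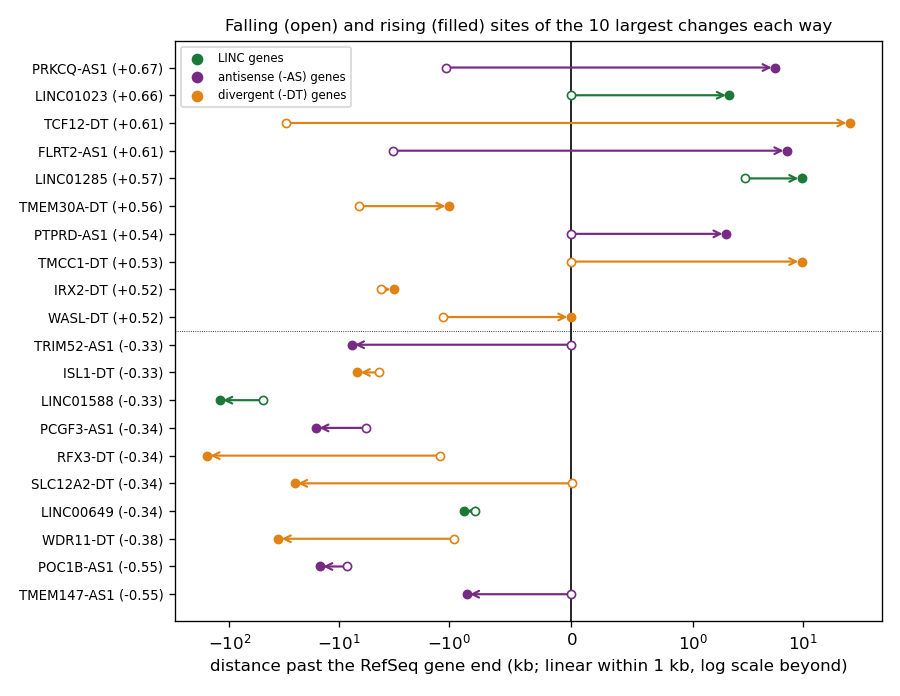
Position of the falling site (open) and the rising site (filled) relative to the RefSeq gene end, in kb (horizontal axis, linear within 1 kb and log beyond), for the 10 noncoding genes with the largest change in each direction and a RefSeq span. In 7 of the 10 longer genes the rising site lies past 0, as in TMCC1-DT at 9662 nt, and in the 10 shorter genes it lies before 0.

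Some sites lie outside the RefSeq span of the gene they were given to. The authors' genes carry Ensembl identifiers, and Ensembl spans were not compared. The cryptic site of LINC00662, 68788 nt past the RefSeq end, is labelled as exon by the authors. A site outside the RefSeq span, here or above, may therefore lie inside the gene as the authors annotated it. In 5 of the 134 noncoding genes of the change table with a RefSeq span, both sites lay before the start. For ADAM7-AS1 they were 249258 nt and 360777 nt before it. In 8 genes both sites lay past the end. The rising site was in another RefSeq gene of the same strand in 7 genes and the falling site in 8. Both sites of A2M-AS1 lay in KLRG1, and those of PCBP1-AS1 in ASPRV1, so transcripts of the overlapping genes cannot be told apart there. A gene on the opposite strand covered the rising site in 25 and the falling site in 28 genes, and all 117 strands that could be compared with RefSeq equalled the site's strand.

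Cryptic polyadenylation sites are sites little used in the scrambled neurons and used in the knockdown. The 145 genes held 23 of the 457 listed cryptic sites (5.03%), 1 per gene, in 14 introns and 9 exons by the authors' labels. Introns and exons held 33.5% of all listed cryptic sites, and exons 5.25%. Of the 24 sites in exons, 9 (37.5%) were in these noncoding genes. Exons held 39.1% of the 23 sites and 11.5% of the 130 sites in introns and exons of other genes. How the authors assigned these labels in genes with no known coding sequence is not stated, and the difference was not tested. Usage in the authors' deposited table is 1 value per group with no error. In the scrambled group it ran from 1.89% to 5.66% over the 23 sites, with a median of 4.38%, and in the knockdown from 14.4% to 62.5%, with a median of 21.6%. The ranges of the groups did not overlap, as the listing of these sites requires.

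Usage passed 50% in 3 genes. POC1B-AS1 went from 4.62% to 62.5% at an intron site (chromosome 12:89526534, plus strand) in the authors' deposited table. BOK-AS1, antisense of a BCL2 family gene, went from 5.41% to 54.9% at an intron site (chromosome 2:241558076, minus strand) in the authors' deposited table. ZNF496-DT went from 5.15% to 52.0% at an exon site (chromosome 1:247377231, plus strand) in the authors' deposited table, 1 nt before the RefSeq end of the gene. Its falling site was 42655 nt upstream and 2522 nt from the start. NIFK-AS1 had the lowest control usage, and went from 1.89% to 29.1% at a site 1 nt from its RefSeq end, per the authors' deposited table.

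ISL1-DT went from 5.26% to 38.0% at chromosome 5:51379566 (minus strand), and LIPE-AS1, against the hormone-sensitive lipase gene, from 2.56% to 26.9%, in the authors' deposited table. TTC36-AS1 (5.60% to 26.2%), ADAM7-AS1 (4.56% to 25.3%) and RASSF8-AS1 (3.02% to 23.0%) were also intron sites in the authors' deposited table. RAB30-DT, NR2F1-AS1 and EPB41L4A-AS1 were exon sites, at 22.2%, 21.1% and 21.3% in the knockdown of the authors' deposited table. EPB41L4A-AS1 is known as a host of a small nucleolar RNA, and NR2F1 is a nuclear receptor of the developing cortex. LINC01278 rose from 2.67% to 21.6% and LINC00662 from 2.83% to 17.5%, both in exons of the authors' deposited table. The intron sites of IGSF22-AS1, KCNK15-AS1, VPS13B-DT, TMEM161B-DT, WARS2-AS1 and SMIM15-AS1 reached 21.8%, 20%, 20.2%, 17.6%, 17.2% and 15.0% in the knockdown of the authors' deposited table. LINC02217 and OTUD6B-AS1, at exon sites, reached 16.7% and 15.2%, and LINC02352 had the lowest usage, 14.4%, in the authors' deposited table. The OTUD6B-AS1 site, like the exon sites of ZNF496-DT and NIFK-AS1, was 1 nt from the RefSeq end of its gene.

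The cryptic site was also the rising site of the gene's pair in 13 of 23 genes (56.5%), against 43.5% of all listed cryptic sites. In 10 of the 13 the gene was longer, with 6 exon and 4 intron sites, so the cryptic end lay downstream of the end that fell. In the other 3, POC1B-AS1, ISL1-DT and ADAM7-AS1, the gene was shorter and the site was in an intron. WARS2-AS1 and TMEM161B-DT were in both tables with a cryptic site that was neither of the pair's sites. The 8 genes listed only for a cryptic site were BOK-AS1, IGSF22-AS1, KCNK15-AS1, LINC02217, LINC02352, NR2F1-AS1, RAB30-DT and RASSF8-AS1.

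**Figure D4:**
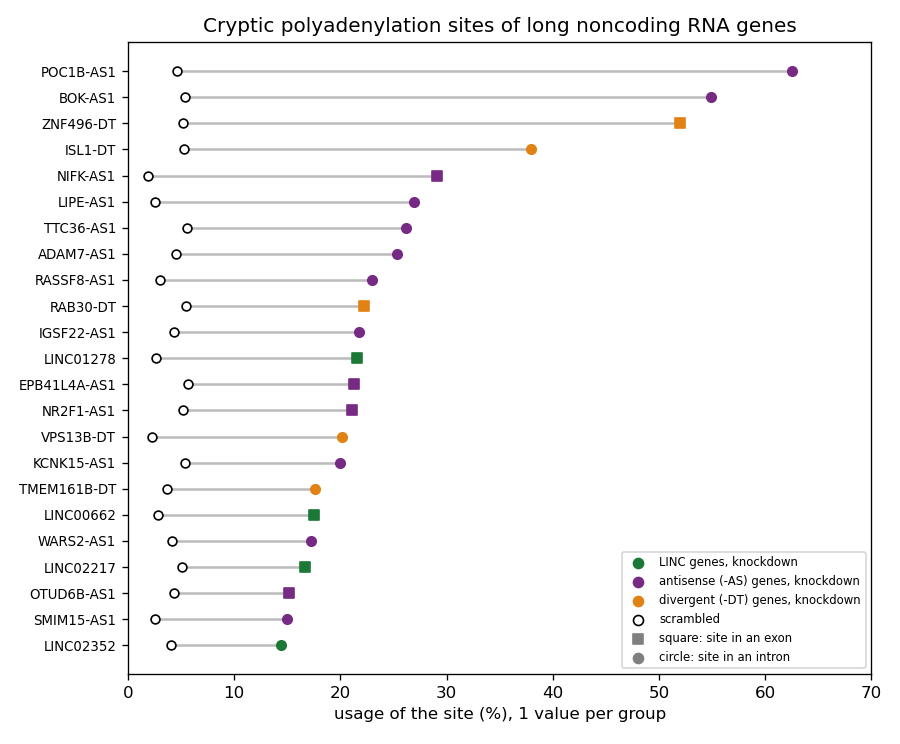
Usage (%) of the 23 cryptic sites of noncoding genes in the scrambled group (open) and the knockdown group (filled), 1 value per group from the authors' deposited table, with squares for exon and circles for intron sites. All control values lie at or below 5.66%, and POC1B-AS1 reaches 62.5% in the knockdown.

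Splicing changes in RNA-seq touched 9 of the 137 genes (6.57%), against 20.1% of the named genes of the change table. Only 6 of the 9 are listed by symbol, and TMEM161B-DT, NUP50-DT and ISL1-DT appear under older names. Splicing was given as the change of an intron's share of its cluster of overlapping introns, in percentage points, with 1 false discovery rate (FDR) per cluster. Which arm was subtracted is not stated, and a positive change was taken as a gain in the knockdown. LINC01278 had the largest change, at 26.5 points for an intron with an unannotated 3' splice site (chromosome X:63399903-63432364, minus strand), with FDR 0.00861 in the authors' deposited table. The annotated intron from the same 5' splice site, 63428981-63432364, changed by -22.6 points, and another with an unannotated 3' splice site by -3.9, in the authors' deposited table.

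These introns of LINC01278 lead to its polyadenylation sites. The unannotated 3' splice site lay 2435 nt upstream of the rising cryptic site at 63397468. The annotated one is 2422 nt before the falling site (63426559), which lies 1 nt from the RefSeq end of the gene. The change of the usage index for the pair was 0.175 (adjusted p = 1.57e-22 in the authors' deposited table). The rising end lies 29090 nt past the RefSeq end. RNA-seq junctions and 3' end-seq sites come from separate libraries of the same arms, and the tables do not link them within a molecule.

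**Figure D5:**
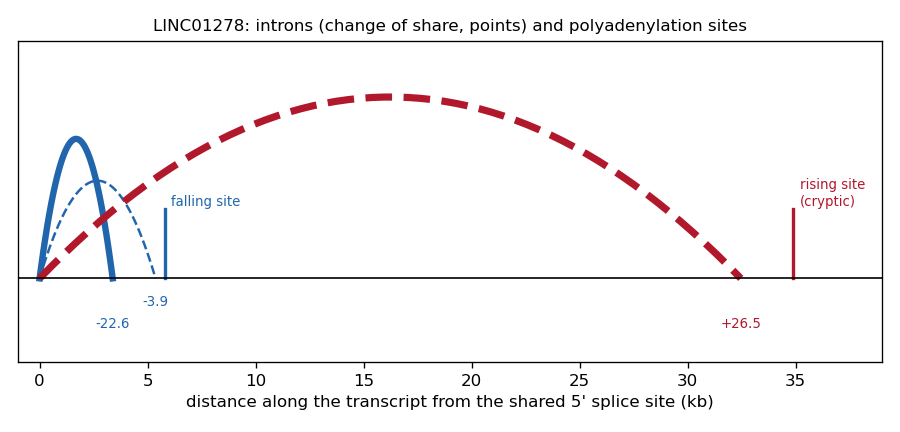
LINC01278 drawn to scale along the transcript, in kb from the shared 5' splice site (horizontal axis), with arcs for the 3 introns of the changed cluster (dashed where the 3' splice site is unannotated), labelled with the change of share in points, and marks for the falling and the rising polyadenylation site. The intron that gained 26.5 points ends before the rising site, and the intron at -22.6 points ends before the falling site.

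ISL1-DT was arranged in another way. Its rising cryptic site lies inside the annotated intron chromosome 5:51379075-51382974, 3408 nt past the 5' splice site and 491 nt before the 3' splice site. The share of that intron changed by -6.6 points (FDR 0.0417 in the authors' deposited table). The intron ends 2006 nt upstream of the falling site at 51377069. The table lists 13 other introns of the cluster, all with an unannotated end, at up to 5.2 points. The intron at 5.2 points, 51375663-51382974, starts at the same 5' splice site and ends downstream of both polyadenylation sites.

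The other 7 genes had changes below those of LINC01278. TMEM161B-DT ranged from -9.3 to 16.7 points (FDR 0.0329) and ZNF790-AS1 from -10 to 8.3 (FDR 0.0327) in the authors' deposited table. In WDFY3-AS2, antisense of an autophagy adaptor gene, an intron at 8.4 points ended 4513 nt upstream of the rising site (FDR 0.00657 in the authors' deposited table). PCBP1-AS1, LINC01128, NUP50-DT and CCDC144NL-AS1 stayed between -7.9 and 6.6 points in the authors' deposited table. LINC01128 was the case with annotated introns only. One junction with no gene or strand assigned, at -12.5 points (FDR 0.0304 in the authors' deposited table), ended 201 nt upstream of the falling site of VPS13B-DT and was named after its value was seen.

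The RNA-seq polyadenylation table held 1 of these genes, against 11.2% of the named genes of the change table. That table of 841 genes is made of 817 RefSeq protein-coding genes, 24 genes without a RefSeq symbol, and no long noncoding gene by its listed symbol, so absence from it cannot be read as no change. IRX2-DT was there under the older symbol C5orf38. For this table, too, the subtracted arm is not stated, and distal was taken as a gain of the downstream site in the knockdown, a reading on which the direction of IRX2-DT and of the partners below rests. On that reading it was called proximal at -0.786 (adjusted p = 2.22e-06) in the authors' deposited table from RNA-seq, and longer at 0.518 in that from 3' end-seq. Sites were not matched between the assays, and 95% of the genes of the RNA-seq table were called distal.

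The coding partners were followed by the symbol before -AS or -DT. Of 111 partners, 34 were in any table: 12 in the 3' end-seq change table (10.8%), 6 with a cryptic site (5.41%), 8 in the RNA-seq polyadenylation table (7.21%) and 19 with a splicing change (17.1%). Among named genes of the change table, 20.1% had a splicing change and 11.2% were in the RNA-seq polyadenylation table. Those genes were listed for a change, whereas the partners were taken by name and only 12 of 111 are in the change table. These sets are unlike, so their shares cannot be compared. The number of genes tested is unknown, so no share over all genes can be set beside any share of the partners. Of the 12 partners in the change table, 11 were longer and 1, PTPRD, was shorter, with 84.7% longer over all listed genes. The member and its partner had the same direction in 9 cases and opposite directions in 3. With most listed genes longer, unlinked genes would also often share a direction, and a link was not tested. PTPRD had a change of -0.318 and PTPRD-AS1 of 0.543, in the authors' deposited table. PCGF3-AS1 and ZKSCAN7-AS1 were shorter and PCGF3 and ZKSCAN7 longer; the ZKSCAN7 pair was named after its values were seen. TCF12 moved the same way as TCF12-DT but by 0.108 against 0.609, and SMIM15 by 0.267 against 0.119 in SMIM15-AS1, in the authors' deposited table. In RNA-seq polyadenylation, 7 partners were distal, among them IRX2 at 0.432 (adjusted p = 0.00299 in the authors' deposited table), and 1 was proximal. Of all genes listed there, 95% were distal. An intronic cryptic site of PTPRD was used at 1.45% in the scrambled group and 33.3% in the knockdown of the authors' deposited table. FLRT2 also had an intronic cryptic site, at 3.70% in the scrambled group and 15.1% in the knockdown of the authors' deposited table.

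The largest partner splicing change was in EPB41L4A, the gene of a membrane-cytoskeleton linker protein, at -87.1 points in the authors' deposited table. PRKACB, a catalytic subunit of protein kinase A, changed by -21.7 points, and PTPRD by 15.5, in the authors' deposited table. The antisense genes overlap their partner more than the divergent ones at these sites. The rising site lay in the partner's span in 18 of 67 antisense genes and 1 of 35 divergent genes, and the falling site in 24 and 2.

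Factors that end or degrade noncoding transcripts were given by a list of 46 genes, of which 14 were in any table. The number of genes tested is unknown, so no share over all genes can be set beside this. In 3' end-seq 5 were longer and 1 shorter, with 84.7% of all listed genes longer. INTS10, a subunit of the Integrator complex that cleaves short nascent RNA, changed by 0.368, and PCF11, a termination factor, by 0.212, in the authors' deposited table. The exosome nuclease DIS3 changed by 0.208, ZCCHC7 of the TRAMP complex by 0.129, the cap-binding protein NCBP1 by 0.123, and the exosome subunit EXOSC7 by -0.175, in the authors' deposited table. NCBP3 had a cryptic site at 5.92% in the scrambled group and 33.6% in the knockdown of the authors' deposited table. In RNA-seq 3 were distal (EXOSC4, INTS12 and NCBP3), as were 95% of all genes listed there. A splicing change was listed for 6, the largest in DIS3L at -23.1 points in the authors' deposited table. Whether these bear on the noncoding genes was not tested.

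A list of 20 noncoding RNA genes known by other names had 8 in any table, 1 of which, EPB41L4A-AS1, is also counted above. MIR9-1HG, SNHG10 and SNHG17 entered the list by a symbol pattern because they were listed, so 8 of 20 is not a rate. Longer were 6 and shorter 0, with 84.7% of all listed genes longer. MIR9-1HG, the host gene of the neural microRNA miR-9, changed by 0.568, and JPX, known as an activator of X inactivation, by 0.281, in the authors' deposited table. PVT1 (0.139), CRNDE (0.115) and SNHG10 (0.107) were nearer to the lower end. MIAT, an RNA of neurons and retina, had a splicing change of -30.0 points and SNHG17 of 11.2, in the authors' deposited table. No microRNA hairpin of RefSeq lay between the falling and rising site of any of the 137 genes.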

How the data were processed

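RNA-seq and 3' end-seq libraries came from WA01-derived neurons with scrambled or TDP-43 shRNA, 3 libraries per group. Per the labels' protocols, a stranded total RNA kit and the QuantSeq REV kit were used. QuantSeq REV primes on poly(A), so A-rich stretches inside an RNA can look like a site; this was not tested beyond 1 site. Tools named in the submitters' processing notes, with no version or role, are fastp, Salmon, DESeq2, STAR and SAMtools, with the hg38 build. For the callers of the tables, a name is not given in the sources used.

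Values are the authors' comparisons in 5 deposited tables. The change of the usage index and the change of intron share are scores that the authors deposited, the first of unstated scale. The adjusted p-values (FDR for splicing) are as deposited, up to 0.05. Cryptic usage is a deposited fraction, 1 value per group, printed as a percent. The normalized gene table was left out, since no label ties its 6 columns of values to samples, and the planned expression and marker results were not run. The labels give the depth of no library, so precision is unknown and no interval was computed.

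Members and lists were chosen with earlier results of these data known. Named were the 10 largest changes each way, every gene with a cryptic site, every gene in the RNA-seq tables, listed partners of these, listed genes of the 2 lists, and genes nearest the table's lower end; others are marked as chosen after their values or positions were seen. Symbols, spans, strands and start windows are from RefSeq (GRCh38.p14, the build of the files). The 2 repeated lines of the cryptic table were counted once. The placement, distance and junction functions were tested on simulated data. Python 3.11.15, pandas 2.3.3, numpy 2.4.6 and matplotlib 3.10.9 were used. Alternatives were a change of at least 0.2, adjusted p up to 0.01, a wider symbol rule, sites inside RefSeq genes, usage and share limits, and older symbols.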

Additional observations from a re-analysis of the deposited data

How the results depend on the processing

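With both sites required inside the RefSeq gene, 57 genes were longer and 17 shorter, against 111 and 26 as reported, and the share longer was 77%, with 86.6% in the other listed genes under the same limit. Requiring control usage below 3% left 6 of 23 cryptic sites. Requiring an intron change of at least 10 points left 2 of the 6 genes with a splicing change listed by symbol, LINC01278 and ZNF790-AS1. Of the 9 that include older names, TMEM161B-DT also passed, at 16.7 points. Chosen after seeing the data, limits of 1000 and 5000 nt from the RefSeq start gave 10 and 47 longer genes in place of 26. In the other listed genes these limits gave 1.38% and 12%, against 9.80% and 46.1% in the noncoding genes. The other alternatives kept each count within 1.5 times its value as reported, with the share longer between 77% and 81.3% over all of them.

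No paired analysis was possible because the tables hold no value per library. For the same reason, leaving out single libraries, other pseudocounts, filters and count tests were not run. Depth is unknown, so whether a gene missing from a table did not change or could not be measured cannot be told apart.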

Other observations

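The splicing table held 17 further genes that the symbol rule would take but that were in neither 3' end-seq table. ZNRD1-AS1 had the largest change among them, at -31.9 points for an annotated intron (chromosome 6:30058190-30060741, FDR 0.0276 in the authors' deposited table). ZNF582-AS1 changed by -25.8 points at an intron with an unannotated 5' splice site (FDR 0.0145), and LINC00869 by -22.6 at a new pair of annotated splice sites (FDR 1.32e-05), in the authors' deposited table. MCPH1-AS1 (-21.2), LINC00342 (-18.1), LINC00630 (-14.7) and LINC00665 (-12.6) changed at introns with an unannotated splice site in the authors' deposited table. MAPKAPK5-AS1 changed by 15.8 points and FGD5-AS1 by 11.1 at annotated introns of the authors' deposited table. These genes were named after their values were seen.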
